A study of Mus musculus with 6 samples.

Results

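The nuclear-encoded subunits of the mitochondrial respiratory chain were followed through implantation of the mouse embryo in single-cell RNA data. They were chosen by gene symbol alone: every symbol that starts with Nduf, Uqcr, Cox4, Cox5, Cox6, Cox7, Cox8 or Atp5, together with Sdha, Sdhb, Sdhc and Sdhd, and without symbols that end in -ps. The rule itself uses no measured value, but it was set with earlier results of these data known. It took 93 of the 32285 genes in the matrices, of which 36 encode complex I, 4 complex II, 8 complex III, 20 complex IV and 17 complex V. The other 8 are complex I assembly factors, whose symbols also start with Nduf and which are not part of the finished enzyme, so that 85 of the 93 are subunits. Ndufa4, named as a complex I gene but now counted as a complex IV subunit, and its paralogue Ndufa4l2 were placed with complex IV.

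Embryos were bred from dams of the hybrid B6SJLF1/J and sires of the hybrid B6CBAF1/J, and their cells were profiled at E3.5, E4.5 and E4.75 (days after mating), then E5.0, E5.25 and E5.5, with 1 droplet library (Chromium 3' v3.1) per stage. No allele or agent was tested, and the stages are the groups. The dams of E3.5 and E4.5 were 4 weeks old and superovulated with PMSG and hCG, and their uterine horns were flushed to collect embryos. From E4.75 on the dams were 7 weeks old and embryos were dissected out of the uterus. All were dissociated with Accumax, and the cell suspensions of E3.5, E4.5 and E5.5 passed a 20 µm filter. Stage, dam age, hormone treatment, collection and filtering therefore change together between E4.5 and E4.75, and their parts in any difference across that step cannot be told apart. With pooled embryos in 1 library per stage there was no replicate, so no p-value is given. All intervals cover counting error only.

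The respiratory chain passes electrons from NADH (complex I) and succinate (complex II) through ubiquinone, complex III and cytochrome c to oxygen at complex IV. Complexes I, III and IV pump protons across the inner mitochondrial membrane, and complex V, the ATP synthase, makes ATP from the return flow. A few core subunits are encoded in mitochondrial DNA and the rest in the nucleus, except in complex II, which is nuclear throughout and is also the succinate dehydrogenase of the TCA cycle. The preimplantation embryo is known to rely on pyruvate and respiration before glucose use increases at the blastocyst stage.

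The 6 matrices held 391375562 UMIs (unique molecular identifiers, which count captured RNA molecules once) in 42328 barcodes, and 20817 cells were kept, 88 to 8102 per library, with median depths from 5104 UMIs at E5.5 to 31090.0 at E4.75. Clusters were assigned to epiblast, endoderm and trophoblast, and from E4.75 or E5.0 also to parietal endoderm and trophoblast giant cells, from marker genes. The E3.5 library had only 2 endoderm cells, so endoderm starts at E4.5. Different clusters held a lineage at different stages: epiblast lay in cluster 23 at E3.5, 20 at E4.5, 15 and 18 at E4.75 and 1, 4, 7 and 9 later, and endoderm mostly in cluster 16 at E4.5, 13 at E4.75 and 2, 5 and 10 later. Trophoblast lay in cluster 19 at both E3.5 and E4.5, mostly in 17 at E4.75 and in 6 and 11 later. At E3.5 the epiblast class also carried endoderm markers, summing to 1061 CPM (the UMIs of a gene or list per 1000000 UMIs of the class), against 132 to 501 CPM in the later epiblast. At E5.5 clusters with markers of more than 1 lineage held 28.1% of the cells and were left out, and 47 of the kept barcodes occurred in more than 1 library. Levels below are CPM of the UMIs summed over a lineage in a library. Fewer molecules per cell of one gene and more of all others cannot be told apart on this scale.

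In endoderm the summed level of the 93 genes was 31638, 19723, 23754, 22669 and 21212 CPM from E4.5 to E5.5. In trophoblast it was 37878 CPM at E3.5, then 33298, 20784, 27179, 28776 and 28435 CPM. In epiblast it was 28739 CPM at E3.5, then 30476, 22953, 26988, 27983 and 26853 CPM. All 3 lineages were thus lowest at E4.75, the earliest dissected stage. Trophoblast and epiblast stood above endoderm at each stage from E4.75. At E5.5 endoderm held 0.670 times its E4.5 level, trophoblast 0.854 times and epiblast 0.881 times. The exact Poisson 95% interval of the endoderm level was 21090.3 to 21334 CPM at E5.5, against 31486 to 31791 CPM at E4.5, so counting error is small beside these differences.

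**Figure D1:**
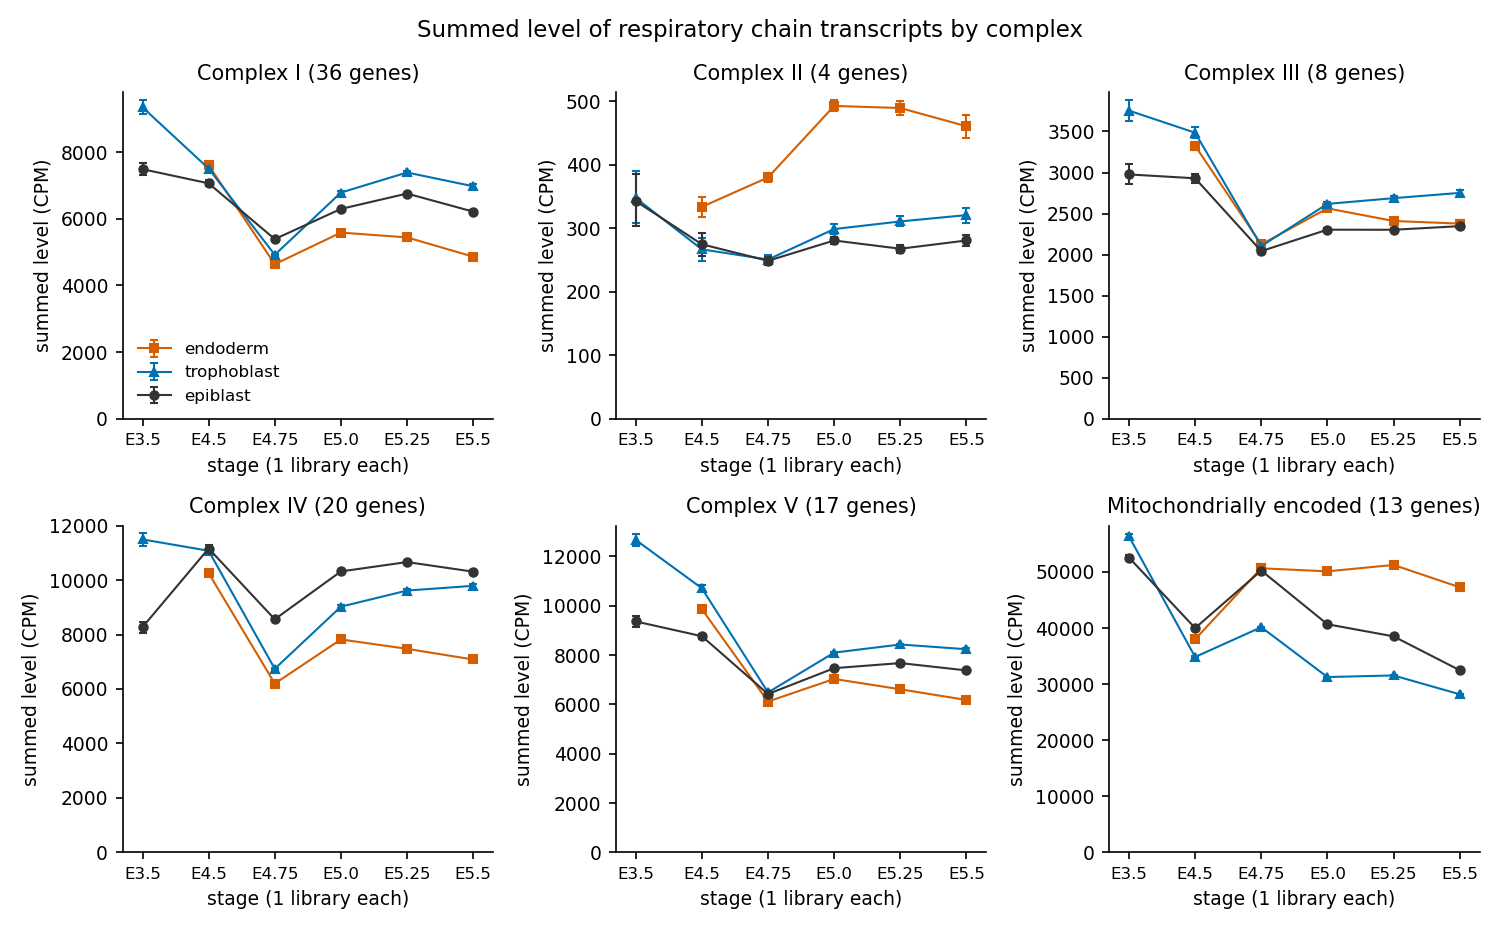
Summed level (CPM) of the subunits of each complex, and of the 13 mitochondrially encoded subunits, by stage in endoderm (squares), trophoblast (triangles) and epiblast (circles). Each point is 1 library and bars are exact Poisson 95% intervals. Complexes I, III, IV and V are lowest or near their lowest at E4.75 in each lineage, complex II is higher in endoderm than in the other lineages from E4.5, and the mitochondrially encoded subunits of endoderm stay at 47269 CPM or more from E4.75.

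The summed level of the 13 subunits encoded in mitochondrial DNA did not follow that of the nuclear ones. Their summed level in endoderm was 38002, 50654, 50100.0, 51246 and 47269 CPM from E4.5 to E5.5. In trophoblast it was 56327 CPM at E3.5, then 34837, 40148, 31255, 31542 and 28186 CPM, and in epiblast 52550.4 CPM at E3.5, then 39988, 50244, 40670.4, 38511 and 32476 CPM. For each UMI of a nuclear-encoded member, endoderm thus held 1.20 mitochondrially encoded UMIs at E4.5, then 2.57, 2.11, 2.26 and 2.23. The same ratio was 1.49, 1.05, 1.93, 1.15, 1.10 and 0.991 in trophoblast and 1.83, 1.31, 2.19, 1.51, 1.38 and 1.21 in epiblast from E3.5 to E5.5. It peaked at E4.75 in each lineage, and only in endoderm did it stay above 2 afterwards. The 13 genes did not move together: in endoderm 3 rose and 2 fell past 1.5-fold between E4.5 and E5.5. These counts are near the shares of all genes, 25.7% higher and 15.5% lower. Of the complex I genes among the 13, mt-Nd1 and mt-Nd4 rose in endoderm (log2 ratios of 0.77 and 0.67). There mt-Nd3 of complex I fell (-0.96), as did mt-Atp8 of complex V (-1.47). A limit of 15% on mitochondrial counts per cell was part of the cell filter, so these levels are partly bounded by it.

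E5.5 and E4.5 are 2 filtered stages on either side of implantation, but dam age, hormone treatment and collection differ between them too. From E4.5 to E5.5 most changes past 1.5-fold in endoderm were downward. Ratios are of CPM plus 10, over members that reached 10 CPM in at least 1 of the stages, and a member is counted as higher or lower past 1.5-fold on that scale. In endoderm 43 of 85 members fell and 5 rose, where 15.5% of all genes tested fell and 25.7% rose. The median log2 ratio of the members was -0.60 (order-statistic 95% interval -0.76 to -0.40), against 0.18 over all genes. Parietal endoderm became a class of its own from E4.75, and its 10 markers summed to 2437 CPM in endoderm at E5.5, against 6903 CPM at E4.5. In trophoblast 14 of 84 members fell and 9 rose, beside 20.3% and 18.0% of all genes, with a median of -0.19 (-0.27 to 0.02) against 0.03. Giant cells became a class of their own from E5.0, and their 9 markers summed to 8.30 CPM in trophoblast at E5.5, against 248 CPM at E4.5, while the 9 epiblast markers summed to 569.9 CPM, against 120.1 CPM. The part of these shifts in cell make-up in the members' ratios was not tested. In epiblast 13 of 88 fell and 12 rose, beside 21.4% and 18.1% of all genes, with a median of -0.16 (-0.30 to -0.03) against 0.01. The counts in trophoblast and epiblast were below the share of all genes in both directions, while the share that fell in endoderm was above it. Within the dissected embryos, the E5.5 medians taken from E4.75 were 0.05 in endoderm, 0.36 in trophoblast and 0.16 in epiblast. The E4.75 library was not filtered, unlike that of E5.5. Under a scaling by the median of gene ratios the epiblast median of E5.5 over E4.5 was 0.01.

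By complex, the endoderm median was -0.67 for complex I, where 20 of 36 genes fell and 1 rose. It was -0.76 for complex V, with 11 of 17 lower and 1 higher, -0.55 for complex IV, with 6 of 13 lower and 2 higher, and -0.41 for complex III, with 3 of 8 lower. Complex II stood on the other side at 0.47, with 1 of its 4 genes higher and 1 lower. Over all genes in endoderm 25.7% were higher and 15.5% lower. The complex II counts do not stand apart from these shares, and its median rests on only 4 genes. In trophoblast the medians of complexes I, II, III, IV and V were -0.20, 0.11, -0.26, -0.32 and -0.18. In epiblast they were -0.26, -0.06, -0.10, -0.13 and -0.15. The complex I assembly factors had medians of -0.18 in endoderm, 0.33 in trophoblast and 0.26 in epiblast, and with 7 genes tested these rest on few members.

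**Figure D2:**
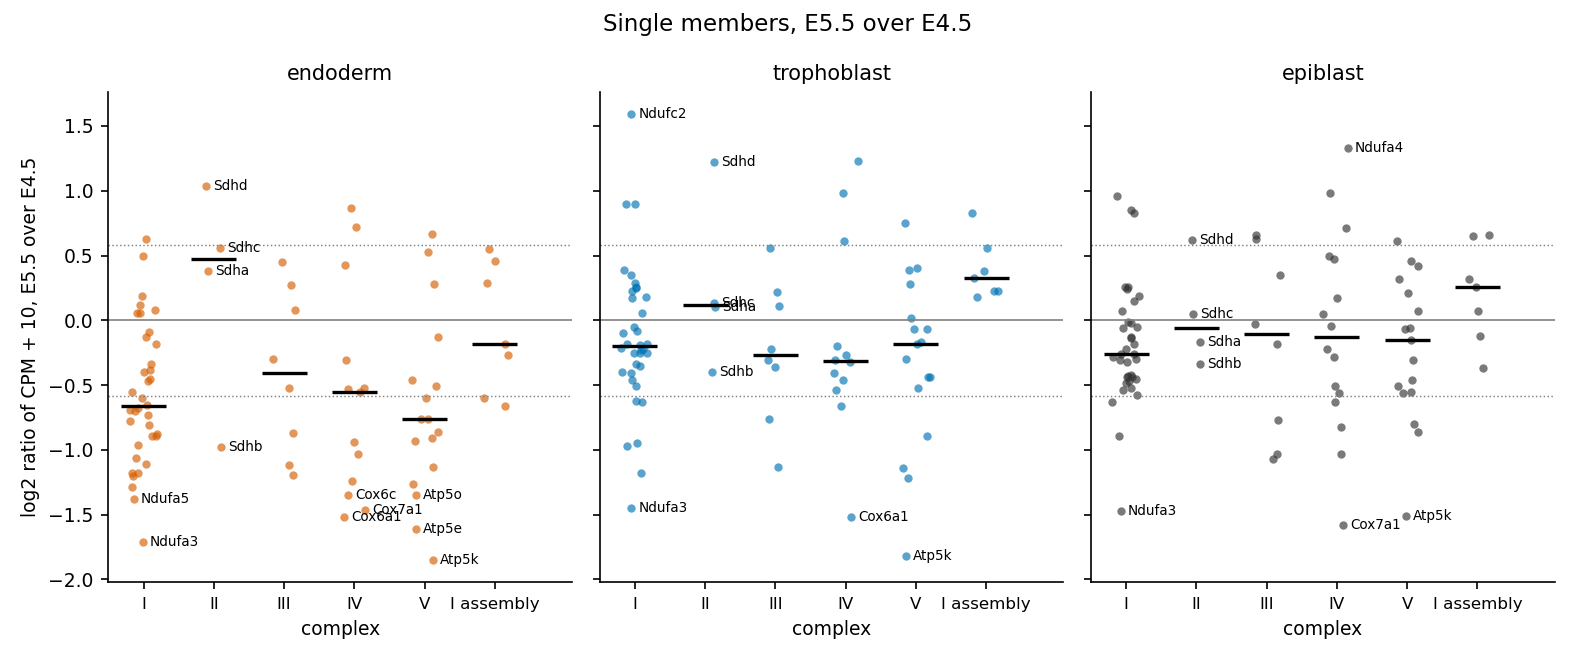
Log2 ratio of CPM plus 10, E5.5 over E4.5, of each member at 10 CPM or more, by complex, in endoderm, trophoblast and epiblast. Each point is a gene, bars are medians and dotted lines mark 1.5-fold. In endoderm 43 of 85 members lie below the lower dotted line, while Sdhd lies above the upper line in all 3 lineages.

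The membrane anchor and catalytic genes of complex II were higher in endoderm than in the other lineages from E4.75, while Sdhb was lower. Sdhd, which encodes a membrane anchor of succinate dehydrogenase, was at 73.8, 90.7, 188, 185 and 162 CPM in endoderm from E4.5 to E5.5. Its level in trophoblast was 37.4, 37.5, 37.5, 93.2, 101 and 100.5 CPM and in epiblast 60.5, 49.8, 49.4, 90.6, 77.6 and 81.9 CPM from E3.5 to E5.5. Sdhd rose between E4.75 and E5.0 in all 3 lineages, by 2.08-fold in endoderm, 2.48-fold in trophoblast and 1.84-fold in epiblast. This step lies within the dissected, unfiltered libraries. At E5.5 its interval in endoderm was 152 to 173 CPM, against 66.6 to 81.6 CPM at E4.5.

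Sdhc, the other membrane anchor, was at 82.0, 118, 126, 130.2 and 126 CPM in endoderm from E4.5 to E5.5, while it held at 45.5 to 52.6 CPM in trophoblast and 62.0 to 66.1 CPM in epiblast over the same stages. Sdha, the catalytic flavoprotein, was at 106, 132, 142, 137 and 142 CPM in endoderm, against 92.9 to 109.6 CPM in trophoblast and 73.3 to 93.3 CPM in epiblast over the same stages. Sdhc and Sdha were therefore higher in endoderm than in either other lineage at each of the 5 stages, for Sdha at E4.5 by less than counting error over trophoblast. Their E5.5 over E4.5 ratios in endoderm, 0.56 and 0.38 on the log2 scale, stayed within the 1.5-fold limit. Sdhb, the iron-sulphur subunit that carries electrons from the flavoprotein, went the other way. It was at 71.5, 40.3, 37.1, 38.3 and 31.2 CPM in endoderm and fell past the limit between E4.5 and E5.5, with intervals of 26.7 to 36.3 CPM at E5.5 and 64.4 to 79.1 CPM at E4.5. In trophoblast Sdhb was at 123, 80.0, 67.9, 67.2, 71.5 and 58.0 CPM and in epiblast at 107, 67.8, 47.2, 51.3, 54.9 and 51.5 CPM from E3.5 to E5.5. The share of complex II among the members' UMIs was 1.05% in E4.5 endoderm and 1.93% to 2.17% afterwards. In trophoblast and epiblast it was 0.801% to 1.21% over the same stages. Parietal endoderm held 1.55%, 1.73%, 1.94% and 1.78% from E4.75 to E5.5.

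**Figure D3:**
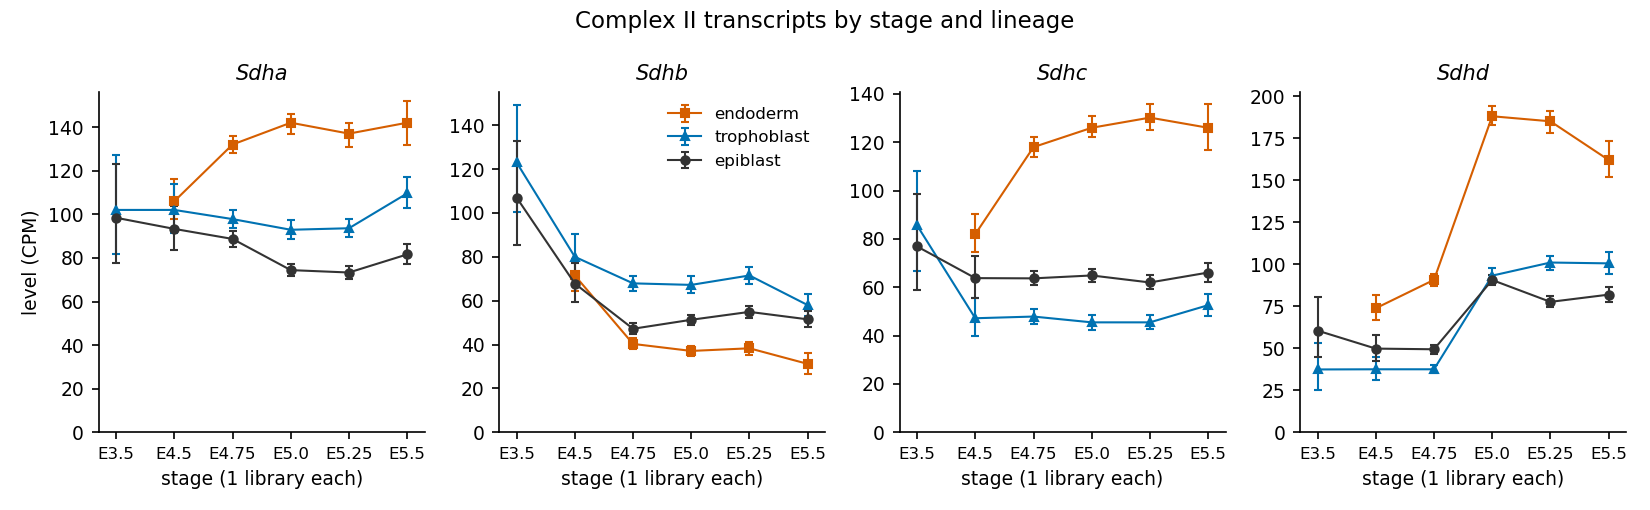
Level (CPM) of Sdha, Sdhb, Sdhc and Sdhd by stage in endoderm, trophoblast and epiblast, with exact Poisson 95% intervals and 1 library per point. From E4.75 Sdha, Sdhc and Sdhd are highest in endoderm and Sdhb is lowest there, and Sdhd is higher at E5.0 than at E4.75 in each lineage.

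In complex I both core and accessory subunits differed among themselves in endoderm. Ndufs1, which carries iron-sulphur clusters in the electron-input arm, was at 56.4, 82.7, 87.5, 83.1 and 92.9 CPM in endoderm from E4.5 to E5.5, against 52.1 to 64.5 CPM in trophoblast and 51.4 to 63.9 CPM in epiblast over those stages. Ndufv1, which binds NADH, stood between 38.9 and 51.8 CPM in endoderm. Between E4.5 and E5.5 Ndufs1 rose there, with a log2 ratio of 0.63, and Ndufv1 was at -0.18. The core subunits Ndufs8 and Ndufv2 fell, at -0.73 and -0.70, while Ndufs7 and Ndufs3 were within the limit at -0.55 and -0.34. Ndufa3, a small accessory subunit, was at 378, 101, 97.2, 85.0 and 108 CPM in endoderm, at 309.7, 309, 81.9, 76.8, 75.0 and 107 CPM in trophoblast and at 269, 215, 65.7, 51.5, 45.6 and 71.1 CPM in epiblast. It fell between E4.5 and E5.5 in all 3 lineages, with log2 ratios of -1.71 in endoderm, -1.45 in trophoblast and -1.47 in epiblast.

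Other accessory subunits of complex I rose. Ndufc2, in the membrane arm, was at 178, 212, 215, 571, 634 and 656 CPM in trophoblast from E3.5 to E5.5, 3.10-fold higher at E5.5 than at E4.5 and 2.66-fold higher at E5.0 than at E4.75. Over that last step giant cell markers stood at 11.2 CPM in E5.0 trophoblast against 172 CPM at E4.75, and epiblast markers at 450.2 against 247 CPM, and their part was not tested. In epiblast Ndufc2 was at 198, 189, 191, 335, 364 and 348 CPM, with the same step, and in endoderm at 204, 151, 246, 254 and 217 CPM. Ndufab1, the mitochondrial acyl carrier protein and also a complex I subunit, was at 212, 222, 201, 451, 551 and 423 CPM in trophoblast, at 198, 208, 244, 434, 541 and 415 CPM in epiblast and at 226, 189.7, 315, 321 and 260.2 CPM in endoderm. Both genes were higher at E5.0 than at E4.75 in each lineage. Ndufa7, another accessory subunit, was at 393, 144, 160.2, 170.4 and 166 CPM in endoderm from E4.5, against 384, 203, 255, 289.9 and 335 CPM in trophoblast and 498, 315, 398, 484 and 426 CPM in epiblast.

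Among complex III genes Uqcrc1 and Uqcrc2, the core proteins on the matrix side, diverged in endoderm. Uqcrc1 was at 164, 81.2, 79.7, 75.6 and 66.2 CPM there from E4.5 to E5.5, while Uqcrc2 was at 112, 136, 159, 148 and 156 CPM. In trophoblast Uqcrc1 was at 81.9 CPM at E5.5 and 145 CPM at E4.5, and in epiblast at 76.5 CPM at E5.5 and 167 CPM at E4.5, so Uqcrc1 fell in each lineage. Uqcrfs1, the Rieske iron-sulphur protein, was at 163, 126, 162, 205, 179.6 and 190.0 CPM in trophoblast, at 132, 75.9, 94.4, 121, 115 and 123 CPM in epiblast and at 101, 127, 149.8, 137 and 124 CPM in endoderm. It was higher in trophoblast than in epiblast at each stage. Uqcr10, a small accessory subunit, fell in epiblast, to 369 CPM at E5.5 against 784 CPM at E4.5, and in endoderm, with log2 ratios of -0.87 in endoderm, -0.31 in trophoblast and -1.07 in epiblast.

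Complex IV held the members that rose most in epiblast. Ndufa4 was at 505, 637, 827, 1367, 1458 and 1615 CPM in epiblast from E3.5 to E5.5, at 741, 686, 746, 1290.2, 1423 and 1624 CPM in trophoblast and at 961, 859.8, 1387, 1261 and 1295 CPM in endoderm from E4.5. Its rise between E4.5 and E5.5 was 2.54-fold in epiblast and 2.37-fold in trophoblast, while the 1.35-fold difference in endoderm stayed within the limit. Cox5a, a matrix-side subunit, rose in all 3 lineages: it was at 444, 524, 797, 1159.8, 1198 and 1044 CPM in epiblast, at 1061, 608, 732, 1092, 1083 and 931 CPM in trophoblast and at 455, 585, 1019, 979 and 841 CPM in endoderm. Cox4i1, the common form of the largest nuclear-encoded subunit, was at 589 CPM at E5.5 and 848 CPM at E4.5 in endoderm, at 698 CPM at E5.5 and 869.5 CPM at E4.5 in trophoblast and at 608 CPM at E5.5 and 739.5 CPM at E4.5 in epiblast. Cox7a2l, whose product joins complexes III and IV into supercomplexes, rose in each lineage, to 155 CPM in endoderm, 167 CPM in trophoblast and 153 CPM in epiblast at E5.5, against 89.9, 79.7 and 89.5 CPM at E4.5.

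Cox6a1 and Cox7c were lower at each stage from E4.75 than at E4.5, and dam age, hormone treatment and collection changed at that step too. In epiblast, Cox7c at E3.5 was below all later stages. Cox6a1, the broadly expressed form of its subunit, was at 514, 193, 201, 187 and 172 CPM in endoderm from E4.5, at 605, 487, 168, 168, 177 and 163 CPM in trophoblast and at 527, 306, 125, 139, 157 and 145 CPM in epiblast. In every lineage the lower level was reached at E4.75 and held. Cox7c, a small membrane subunit, was at 1989.6, 839, 916, 886 and 969 CPM in endoderm, at 1739, 2023, 778, 994, 1034 and 1273 CPM in trophoblast and at 1318, 3029.6, 1853, 1996, 1996 and 2054 CPM in epiblast. It fell past the limit between E4.5 and E5.5 in endoderm and trophoblast but not in epiblast, where it stood higher than in either other lineage at each stage from E4.5. Complex IV genes together held 36.6% to 38.4% of the members' UMIs in epiblast from E4.5, against 31.4% to 33.4% in endoderm and 32.4% to 34.4% in trophoblast, and 28.8% in epiblast at E3.5.

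Complex V included Atp5k, the member with the lowest E5.5 over E4.5 ratio in endoderm and trophoblast. Atp5k, which encodes subunit e of the membrane part and is known for its part in joining ATP synthase into dimers, was at 905, 315, 225, 185 and 243 CPM in endoderm from E4.5, at 1404, 1178, 288, 247, 234 and 328 CPM in trophoblast and at 1061, 843, 305, 222, 195 and 289.6 CPM in epiblast. Its log2 ratio of E5.5 over E4.5 was -1.85 in endoderm, -1.82 in trophoblast and -1.51 in epiblast, and its range over all classes and stages was the widest of the members. Atp5e, the epsilon subunit of the rotor, fell with it in endoderm, to 332 CPM at E5.5 against 1036 CPM at E4.5, in trophoblast, to 421 CPM against 997 CPM, and in epiblast, to 428 CPM against 784 CPM. Of the catalytic part, Atp5b fell to 380.0 CPM at E5.5 against 722 CPM at E4.5 in endoderm, whereas Atp5a1 rose there, to 813 CPM against 508 CPM. Atp5c1, the central stalk, was at 228 CPM at E5.5 and 352 CPM at E4.5 in endoderm. Atp5a1 was thus the only complex V gene past the limit upward in endoderm. Atp5d, the delta subunit of the rotor, was at 751, 346, 283, 378, 440.2 and 352 CPM in trophoblast, against 391, 190.4, 188, 216, 246 and 201 CPM in epiblast.

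Promoter sequences are shown for Sdha and Sdhd, which stood higher in endoderm, for Ndufa4, which rose, and for Atp5k, Cox6a1 and Cox7a1, which fell, so that the letters can be set beside the levels. RefSeq windows of 300 bases on GRCm38.p6, from 250 before to 50 after a transcription start, were found for 75 of the 93 members. Capitals mark matches, on either strand, to the letters GCGCANGCG (NRF1), CCGGAAG (GABPA and other ETS factors) and TCAAGGTCA (the estrogen-related receptors), factors known as regulators of respiratory genes. Each window is written 5′ to 3′ on the strand of the gene. They are Sdha at chr13:74350191-74350490 on the minus strand, Sdhd at chr9:50603800-50604099 on the minus strand, Atp5k at chr5:108434350-108434649 on the minus strand, Cox6a1 at chr5:115348909-115349208 on the minus strand, Ndufa4 at chr6:11907401-11907700 on the minus strand and Cox7a1 at chr7:30183921-30184220 on the plus strand.
Sdha: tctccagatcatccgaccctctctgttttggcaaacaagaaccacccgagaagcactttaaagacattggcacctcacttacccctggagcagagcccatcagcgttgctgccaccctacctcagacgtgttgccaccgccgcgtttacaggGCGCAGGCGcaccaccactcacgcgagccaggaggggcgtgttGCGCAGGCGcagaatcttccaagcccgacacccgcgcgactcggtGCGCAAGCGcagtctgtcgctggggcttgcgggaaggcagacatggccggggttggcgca
Sdhd: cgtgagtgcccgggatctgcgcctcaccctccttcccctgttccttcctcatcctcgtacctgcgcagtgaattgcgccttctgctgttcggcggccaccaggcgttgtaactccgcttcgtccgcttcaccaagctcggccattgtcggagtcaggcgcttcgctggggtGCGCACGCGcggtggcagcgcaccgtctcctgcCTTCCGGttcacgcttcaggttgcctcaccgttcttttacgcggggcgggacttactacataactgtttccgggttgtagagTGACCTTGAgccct
Atp5k: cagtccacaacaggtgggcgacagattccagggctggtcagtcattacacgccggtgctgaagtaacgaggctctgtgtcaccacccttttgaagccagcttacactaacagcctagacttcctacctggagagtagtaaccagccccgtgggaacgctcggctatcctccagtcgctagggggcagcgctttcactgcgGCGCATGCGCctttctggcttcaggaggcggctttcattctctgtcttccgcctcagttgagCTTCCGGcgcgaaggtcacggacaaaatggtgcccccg
Cox6a1: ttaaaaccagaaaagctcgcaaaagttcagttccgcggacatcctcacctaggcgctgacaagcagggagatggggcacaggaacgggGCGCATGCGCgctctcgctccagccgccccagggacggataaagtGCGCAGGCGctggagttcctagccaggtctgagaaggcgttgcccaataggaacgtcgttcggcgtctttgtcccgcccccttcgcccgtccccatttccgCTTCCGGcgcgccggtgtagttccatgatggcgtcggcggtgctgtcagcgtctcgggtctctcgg
Ndufa4: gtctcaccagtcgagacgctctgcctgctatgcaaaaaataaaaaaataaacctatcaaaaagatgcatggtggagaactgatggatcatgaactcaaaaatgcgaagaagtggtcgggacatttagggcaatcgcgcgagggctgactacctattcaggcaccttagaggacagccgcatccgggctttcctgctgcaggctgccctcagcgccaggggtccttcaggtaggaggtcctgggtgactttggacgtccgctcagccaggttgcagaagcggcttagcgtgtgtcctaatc
Cox7a1: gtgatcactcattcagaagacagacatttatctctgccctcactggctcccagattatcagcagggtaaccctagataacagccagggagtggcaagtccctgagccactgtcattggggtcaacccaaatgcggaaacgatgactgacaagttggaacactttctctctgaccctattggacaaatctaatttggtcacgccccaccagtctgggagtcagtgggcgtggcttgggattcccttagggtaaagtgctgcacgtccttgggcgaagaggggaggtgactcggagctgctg

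Sdhd held 1 match to each of the 3 motifs and Sdha held 3 to NRF1. Cox6a1 held 3 matches to NRF1 and 1 to GABPA, and Atp5k held 2 and 1. In Cox6a1 and in Atp5k, 2 of the NRF1 matches are the same stretch read on both strands and overlap. Ndufa4 and Cox7a1 held none of them in these windows. Of the 80 windows of members (5 genes had more than 1 start) 28.7% held the NRF1 letters, against 6.25% of all 32851 windows and 14.4% of those of genes at 10 CPM or more in epiblast at E5.5 or E4.5. GABPA letters were in 23.8% of member windows, against 8.86% of all windows and 19.0% of those of expressed genes. The YY1 letters AAGATGGCG, searched on both strands, were in 10.0%, against 1.40% and 3.52%. The TCAAGGTCA letters were in 2.50%, only 2 of the 80 windows, against 0.423% and 0.191%. Such shares were not particular to the members: of 75 windows of mitochondrial ribosomal protein genes, 21.3% held the NRF1, 34.7% the GABPA and 10.7% the YY1 letters. None of those 75 held the TCAAGGTCA letters. The NRF1 letters were in 9 of 34 complex I windows, 2 of 3 of complex II, 2 of 5 of complex III, 1 of 14 of complex IV and 7 of 17 of complex V. Genes that rose and genes that fell were both among those with matches: Sdhd rose and Atp5k and Cox6a1 fell. No other matches overlapped in the windows shown, and a match describes the sequence, not binding.

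Complex IV has subunits with alternative forms encoded by separate genes, and the forms known from muscle or testis gave a small share of UMIs. Cox7a1, the heart and muscle form, held 7.40%, 4.93%, 3.45%, 2.63% and 2.98% of the UMIs of Cox7a1 and Cox7a2 in endoderm from E4.5 to E5.5. In trophoblast its share was 2.66%, 0.929%, 0.454%, 0.164%, 0.198% and 0.471% from E3.5, and in epiblast 7.36%, 4.37%, 1.45%, 0.715%, 0.547% and 0.694%. Cox7a1 itself fell to 17.0 CPM at E5.5 against 64.0 CPM at E4.5 in endoderm, and its log2 ratio in epiblast was -1.58. Exact binomial (Clopper-Pearson) 95% intervals of its share at E5.5 were 2.41% to 3.63% in endoderm, 0.333% to 0.646% in trophoblast and 0.563% to 0.846% in epiblast, so the endoderm share lay above both others.

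Cox6b2, known from testis, held 0.817%, 4.73%, 3.76%, 3.39%, 4.41% and 6.37% of the UMIs of Cox6b1 and Cox6b2 in epiblast from E3.5 to E5.5. Its share was 0.622% to 1.64% in endoderm, and in trophoblast 2.54% at E3.5 and 0.412% to 1.45% later. At E5.5 the epiblast interval, 5.80% to 6.97%, lay above those of endoderm, 1.15% to 2.26%, and trophoblast, 1.14% to 1.80%. Cox7b2, also known from testis, had 0 of 283 UMIs of its pair in E3.5 epiblast, which allows a share of up to 1.06%, and then 2.43%, 3.16%, 4.72%, 3.82% and 1.62%. Limits given here for 0 UMIs take 0 to allow up to 3 UMIs, and they are not the exact intervals. The Cox7b2 share stayed at 0.346% to 0.771% in endoderm and 0.0456% to 0.352% in trophoblast. Ndufa4l2, known as a hypoxia-induced paralogue of Ndufa4, had 0 of 400 UMIs of its pair in E3.5 epiblast (up to 0.750% allowed) and 0.882% to 1.17% from E4.5, against at most 0.0986% in endoderm and 0.0649% in trophoblast. These 3 genes were thus found mostly in epiblast from E4.5. The part of free RNA in their few UMIs in the other lineages was not tested. At E5.5 the 9 epiblast markers summed to 107 CPM in endoderm and 569.9 CPM in trophoblast, against 1475 CPM in epiblast. In the other direction, endoderm markers summed to 171 CPM in E5.5 epiblast, against 9026 to 11665 CPM in endoderm over the stages. Cox8b had no UMI in the 3 lineages, which allows at most 3.78 CPM at E3.5, and Cox4i2, Cox6a2 and Cox8c were at 5.05 CPM or less in the 3 lineages.

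**Figure D4:**
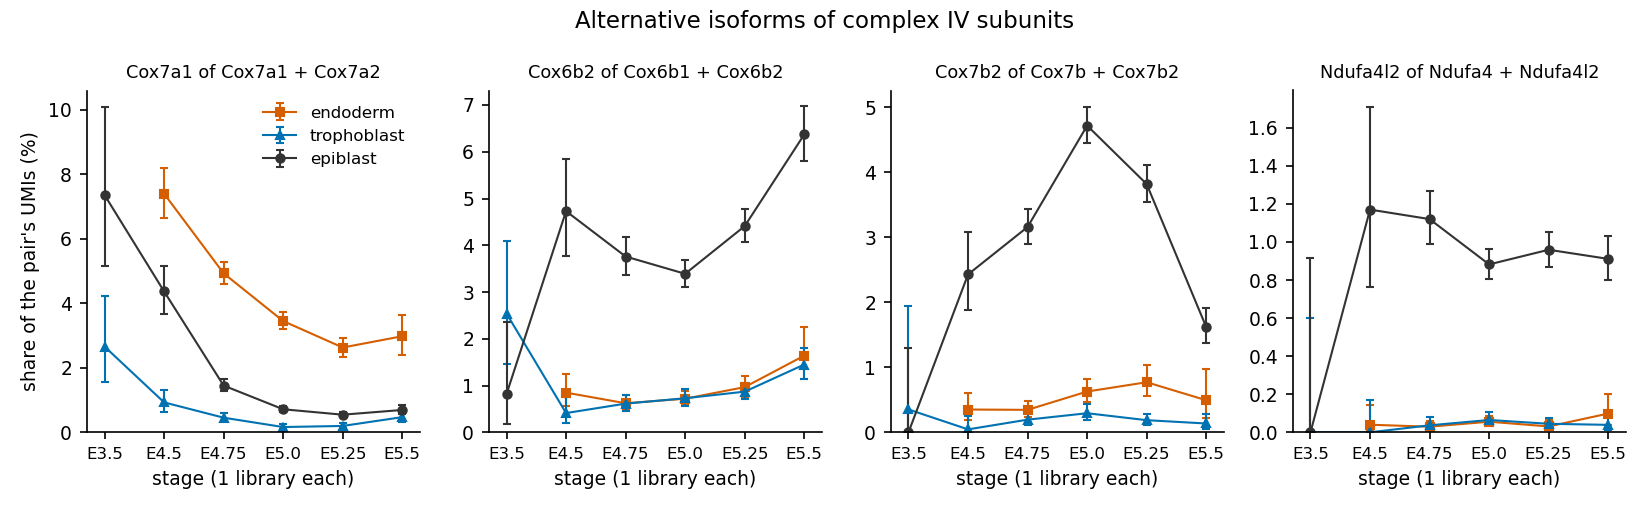
Share (%) of an alternative form among the UMIs of its pair by stage in endoderm, trophoblast and epiblast, for Cox7a1, Cox6b2, Cox7b2 and Ndufa4l2. Bars are exact binomial 95% intervals and each point is 1 library. The Cox7a1 share is highest in endoderm from E4.5, and the other 3 shares are highest in epiblast from E4.5.

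Subunit c of the ATP synthase ring is encoded by Atp5g1, Atp5g2 and Atp5g3, which give the same mature protein. In endoderm Atp5g1 held 41.3%, 31.3%, 31.2%, 28.9% and 24.1% of their UMIs from E4.5 to E5.5, and Atp5g3 25.9%, 41.6%, 37.0%, 35.3% and 42.4%. In trophoblast Atp5g1 held 51.6% at E3.5, 41.3% at E4.5 and 28.2% at E5.5, and Atp5g2 23.9%, 28.8% and 45.3%. In epiblast Atp5g1 held 48.2%, 41.2% and 32.4% at the same stages, and Atp5g2 29.4%, 36.8% and 43.4%. The Atp5g1 share was thus lower at E5.5 than at E4.5 in each lineage. The gene with the largest share at E5.5 was Atp5g3 in endoderm and Atp5g2 in the others.

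Within the dissected, unfiltered libraries, E5.25 against E4.75, the direction differed from that of E5.5 over E4.5. In endoderm 9 of 84 members rose and 1 fell, beside 5.75% and 5.54% of all genes, with a median log2 ratio of 0.10 (0.04 to 0.22) against -0.04 over all genes, and of -0.01 when levels were averaged over cells. In trophoblast 25 of 85 rose and 0 fell, beside 6.87% and 13.7%, with a median of 0.37 (0.28 to 0.52) against -0.11. In epiblast 10 of 87 rose and 1 fell, beside 3.98% and 10.7%, with a median of 0.21 (0.11 to 0.32) against -0.10. Complexes I and IV had the higher medians in trophoblast, at 0.51 and 0.46. The step from E4.5 to E4.75 ran the other way: 48 of 84 members fell in endoderm and 1 rose (10.8% and 20.6% of all genes), 37 of 84 fell in trophoblast and 1 rose (11.2% and 11.8%), and 23 of 87 fell in epiblast and 4 rose (12.1% and 11.6%). The step from E4.75 to E5.0 held 7 of 85 members that rose in endoderm (3.37% of all genes), 12 of 85 in trophoblast (5.06%) and 6 of 87 in epiblast (2.30%), and 0 that fell in any of them (3.19%, 12.1% and 7.47%).

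Within the flushed embryos, E4.5 against E3.5, the trophoblast members had a median log2 ratio of -0.30 (-0.42 to -0.10), with 19 of 86 lower and 1 higher, beside 18.8% of all genes in each direction. In epiblast the median was -0.11 (-0.23 to 0.01), with 10 of 87 lower and 6 higher, beside 22.7% and 19.3%. Under the scaling by the median of gene ratios this epiblast median was 0.05. These rest on 42 trophoblast and 44 epiblast cells at E3.5. Cox5a in trophoblast and Atp5d in trophoblast were among those lower at E4.5, at 608 against 1061 CPM and 346 against 751 CPM. In epiblast Cox7c was higher at E4.5, at 3029.6 CPM against 1318 CPM, and complex IV as a whole was at 11160.0 CPM against 8270.5 CPM.

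Lineages were compared within libraries. At E5.5, 26 of 87 members were lower past 1.5-fold in endoderm than in epiblast and 5 were higher, beside 17.4% and 34.0% of all genes, and the median log2 ratio was -0.27 (-0.42 to -0.10) against 0.23 over all genes. At E4.5 the same median was 0.10 (0.03 to 0.20), with 4 of 87 lower and 8 higher, beside 18.8% and 24.2%. Of 88 members, 23 were lower and 18 higher in endoderm than in epiblast in all 5 libraries from E4.5 to E5.5, where 27.9% and 42.6% of all genes were. Sdhd, Cox7a1, Sdhc and Ndufa3 led the members higher in endoderm, with mean log2 ratios over the 5 libraries of 0.86, 0.83, 0.75 and 0.69. Sdhd, Sdhc and Ndufa3 had means of 139.9, 116 and 154 CPM in endoderm, against 69.9, 64.1 and 89.7 CPM in epiblast. Ndufa7, Cox7c, the complex I assembly factor Ndufaf2 and the complex IV subunit Cox6c led those lower in endoderm, at means of 207, 1119.9, 39.9 and 849 CPM, against 424, 2186, 78.7 and 1445 CPM in epiblast. All 8 kept their direction in the 5 libraries.

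Trophoblast stood closer to epiblast than endoderm did at E5.5, but not at E4.5. At E5.5, 5 of 86 members were higher past 1.5-fold in trophoblast and 5 lower, beside 14.2% and 17.7% of all genes, with a median of 0.14 (0.09 to 0.19) against 0.0003. At E4.5, 10 of 87 were higher and 5 lower, beside 19.7% and 24.9%, with a median of 0.12 (0.02 to 0.20). Over the 5 libraries 29 of 88 members were higher and 16 lower throughout, where 30.4% and 34.6% of all genes were. Atp5d, Uqcrfs1, the small ATP synthase proteolipid Atp5mpl and Ndufc2 led the members higher in trophoblast, at means of 359.8, 173, 441 and 458 CPM, against 208, 106, 277 and 285 CPM in epiblast. Cox7c, the complex I subunits Ndufv3 and Ndufa1 and the assembly factor Ndufaf3 led those lower, at means of 1220.4, 95.1, 110.5 and 11.5 CPM, against 2186, 160.4, 154 and 22.3 CPM in epiblast. Ndufa1 was lower in 4 of the 5 libraries and the other 7 genes kept their direction in all 5.

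Trophoblast giant cells, large polyploid cells that invade maternal tissue, could be followed from E5.0. Their summed level was 25514, 26555 and 24376 CPM at E5.0, E5.25 and E5.5, against 27179, 28776 and 28435 CPM in trophoblast. At E5.5 the median log2 ratio of giant cells over trophoblast was -0.21, with 0 of 85 members higher and 2 lower past 1.5-fold, beside 12.0% and 9.72% of all genes. Parietal endoderm, which lays down the basement membrane facing maternal tissue, was at 21483, 23063, 20839 and 21287 CPM from E4.75 to E5.5, against 19723, 23754, 22669 and 21212 CPM in endoderm.

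Many respiratory subunits have short transcripts, with a median of 742 nt over the 93 members, against 2728 nt for genes at 10 CPM or more in epiblast at E5.5 or E4.5 (median spliced length of protein-coding transcripts, GENCODE M21). Transcripts below 600 nt were lower at E5.5 than at E4.5 among other genes too. In endoderm the median log2 ratio of members was -0.79 below 600 nt, -0.66 from 600 nt and -0.40 from 900 nt, against -0.70, -0.18 and 0.22 for other genes. In trophoblast it was -0.35, -0.20 and 0.13, against -0.28, 0.23 and 0.04. In epiblast it was -0.43, -0.06 and -0.03, against -0.36, 0.24 and 0.02. The endoderm members from 900 nt, 35 genes, thus stood below other genes of that length, whereas the shortest members stood near other short genes in each lineage. The part of transcript length in these ratios was not tested.

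**Figure D5:**
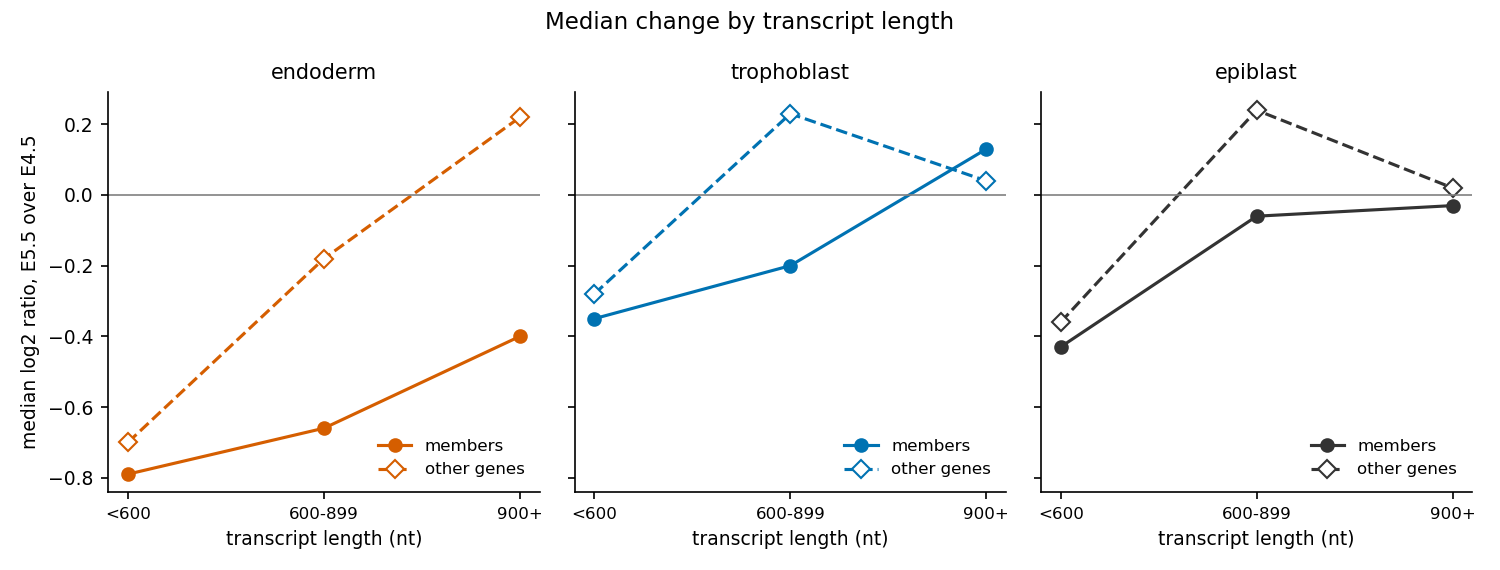
Median log2 ratio of CPM plus 10, E5.5 over E4.5, by transcript length (below 600 nt, 600 to below 900 nt, 900 nt or more) for members (filled circles) and all other genes (open diamonds) in endoderm, trophoblast and epiblast. In endoderm both rise with length, and from 900 nt the members, at -0.40, lie below the other genes, at 0.22.

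Other genes of mitochondrial and energy metabolism were described from gene lists for E5.5 over E4.5, and their counts stand beside shares of all genes of 25.7% higher and 15.5% lower in endoderm, 18.0% and 20.3% in trophoblast and 18.1% and 21.4% in epiblast. Cytosolic ribosomal proteins, also short and abundant, were much lower in endoderm, where 70 of 93 genes fell and 1 rose and the sum was 108809 CPM at E5.5 against 228215 CPM at E4.5. Their median was -0.91 in endoderm, 0.16 in trophoblast and -0.04 in epiblast, and the list, made by symbol, also took some S6 kinase genes. Mitochondrial ribosomal proteins had medians of -0.19 in endoderm (17 of 78 lower, 6 higher), 0.25 in trophoblast (4 lower, 18 higher) and 0.15 in epiblast (4 lower, 22 higher). TCA cycle genes had medians of 0.11, 0.02 and 0.09 in endoderm, trophoblast and epiblast. In endoderm Idh2 (isocitrate dehydrogenase) rose, to 116 CPM at E5.5 against 59.6 CPM at E4.5. Idh2 also rose in trophoblast, to 56.6 CPM against 27.2 CPM. Factors that assemble complex IV had medians of -0.32, 0.14 and 0.02, and the assembly factor Pet100 fell in each lineage, to 38.1 CPM in endoderm, 34.6 CPM in trophoblast and 44.5 CPM in epiblast at E5.5, against 177, 135 and 117 CPM at E4.5.

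Glycolysis genes had medians of 0.13 in endoderm (2 of 13 higher, 2 lower), 0.85 in trophoblast (10 of 15 higher, 1 lower) and -0.06 in epiblast (6 of 15 higher, 2 lower). The endoderm count of 2 lower is near the share of all genes. Pgam1 (phosphoglycerate mutase) rose in each lineage, to 926 CPM at E5.5 against 276 CPM at E4.5 in endoderm. It rose to 1041 CPM against 244 CPM in trophoblast and to 1000.5 CPM against 251 CPM in epiblast. Hk2 (hexokinase) fell in each lineage, to 132 CPM against 349 CPM in endoderm. It fell to 130.0 CPM against 436 CPM in trophoblast and to 145 CPM against 326 CPM in epiblast. Among regulators, Hif1a, the oxygen-sensitive transcription factor, rose to 199 CPM at E5.5 against 86.6 CPM at E4.5 in endoderm. In epiblast Hif1a rose to 119 CPM against 72.2 CPM. Esrrb, an estrogen-related receptor of naive pluripotent cells, was at 1.18 CPM in E5.5 epiblast against 38.5 CPM at E4.5. In trophoblast Esrrb rose, to 63.9 CPM against 29.1 CPM. Of the electron carriers, Etfdh, which feeds electrons from fatty acid oxidation into ubiquinone, was at 6.93 CPM in E5.5 epiblast against 47.5 CPM at E4.5. In trophoblast Etfdh was at 7.13 CPM against 36.6 CPM.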

How the data were processed

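Each stage is 1 single-cell library, and stages come from the sample labels. What the authors deposited are raw UMI counts, unscaled, in matrices from Cell Ranger (7.1.0, per the file headers). Builds named by the submitters' processing notes are GRCm38 (mm10) and hg38, with no role stated for hg38. How cells were called, whether strand was used and how reads with several matches were treated was not given in those sources or in others used here. This matters here, since 29 of the 93 members overlap another gene on the opposite strand and many have processed copies. The reference tables used here are GENCODE M21 (positions, lengths) and RefSeq GRCm38.p6 (promoters).

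Barcodes with at least 1500 genes and at most 15% mitochondrial counts were kept, and the highest Scrublet scores were removed as doublets, 0.8% per 1000 cells up to 8%, which took 1039 cells. Clustering by the Leiden method at resolution 1.0 used log values after scaling each cell to 10000, with 2000 variable genes, 30 components and 15 neighbours, and gave 24 clusters (scanpy 1.11.5, leidenalg 0.10.2). Clusters were named from marker lists. The way markers were scored, and the limit of 0.45 on the score of another class beyond which 4 clusters were called mixed, were chosen after the clusters were seen. Counts of a class were summed per library where it had at least 30 cells and divided by the class total to give CPM, and Poisson intervals are exact (scipy 1.17.1). Ratios are of CPM plus 10 (this understates changes of low genes) over genes at 10 CPM or more in either group, and calls are past 1.5-fold. The calling step was tested on simulated counts with known changes.

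The members, lists, contrasts and naming rule were chosen with earlier results of these data known. Genes named were core subunits, all isoform pairs, the 4 highest and 4 lowest log2 ratios of E5.5 over E4.5 per lineage (20 CPM or more), the 4 highest and 4 lowest mean lineage ratios over 5 libraries, the 3 members of widest range, and the 2 highest and 2 lowest of each further list. A few genes that this rule takes are not reported here. The alternatives tried concerned the early stage, scaling, pseudocount, cell filters, doublets, clustering and mixed clusters. The split by transcript length, the promoters shown and the clusters within endoderm were chosen after values were seen.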

Additional observations from a re-analysis of the deposited data

How the results depend on the processing

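With 1 library per stage no replicate could be left out. No paired analysis was possible because each stage has a single library and the labels give no replicate numbers. The 12 median log2 ratios of members were recomputed under 11 to 15 alternatives each: 150 values kept their direction and size, 10 moved and 4 reversed. Of the 10 that moved, 2 also changed sign, where the interval of the reported median already held 0 (trophoblast E5.5 over E4.5 and epiblast E4.5 over E3.5). Taking E4.75 in place of E4.5 as the early stage gave 0.16 in epiblast, 0.05 in endoderm and 0.36 in trophoblast for E5.5, so the direction at E5.5 depends on which earlier stage it is set against, and the cause was not tested. Scaling by a median of ratios over genes, which removes the all-gene median, gave 0.01 for epiblast E5.5 over E4.5, 0.35 for epiblast E5.25 over E4.75, 0.05 for epiblast E4.5 over E3.5, -0.46 for endoderm over epiblast and 0.29 for trophoblast over epiblast at E5.5, and 0.23 for trophoblast over epiblast at E4.5. Leaving mitochondrial and ribosomal protein genes out of the total gave -0.77 for endoderm E5.5 over E4.5 and -0.46 for endoderm over epiblast at E5.5. Averaging over cells gave -0.01 for endoderm E5.25 over E4.75. Keeping the mixed clusters, an alternative chosen after seeing the data, gave -0.28 for trophoblast E5.5 over E4.5 and 0.06 for trophoblast over epiblast at E5.5. Of the counts of members, 294 values stayed within 1.5 times and 58 moved, of the summed levels 165 stayed and 100 moved, and of the isoform shares 215 stayed and 20 moved. Where a class no longer reached 30 cells an alternative was not run: no doublet removal for contrasts with E4.5 trophoblast or E3.5 cells, the 5% limit on mitochondrial counts for contrasts with E3.5, and leaving out cells under 1% for the epiblast contrast with E3.5. Depth limits genes under 10 CPM and all E3.5 values, which rest on 42 and 44 cells.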

Other observations

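Within endoderm the clusters differed in the members' summed level. Cluster 2, led by the anterior genes Lhx1 and Sfrp1, was at 20939.6, 20262 and 19545 CPM at E5.0, E5.25 and E5.5. Cluster 10, led by the lipid and thyroxine carriers Apoc2 and Ttr, was at 25734, 25046 and 25289.8 CPM, and cluster 5, led by Apoc2 and Apoa1, at 24529.6, 22465 and 21514 CPM. The order of cluster 10 over cluster 5 over cluster 2 held in the 3 libraries, and the share of cluster 10 in E5.5 endoderm was small, at 107 cells. Since the clusters were made from the same cells, these levels are a description. Per cell, the members' share of UMIs ranged from 0.937% to 3.35% (5th to 95th percentile) in E5.25 endoderm, against 2.21% to 3.35% in E5.25 epiblast.

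A small endoderm cluster, number 22, with 39 cells at E4.75 and a median of 0.352% mitochondrial counts there, was at 30379 CPM for the nuclear-encoded members at that stage and 11209 CPM for the mitochondrially encoded subunits. The endoderm class as a whole was at 19723 and 50654 CPM. Cells of cluster 22 were also shallow at E4.75, with a median of 6108 UMIs against 31682 UMIs in the endoderm class. The part of cell quality in these levels was not tested.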
